A study of Mus musculus with 6 samples.

Results

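The genes described here encode the kinases, phosphatases and second messenger enzymes that carry signals inside a cell. They were taken from the platform's gene symbols: the MAPK cascade (Mapk, Map2k, Map3k and Map4k), the Prk kinases, the phosphatases of the Dusp, Ptp and Ppp families, phosphoinositide 3-kinase, Akt, the S6 kinases, the Stk and casein kinases, phosphodiesterases, adenylate cyclases and Rgs proteins. The rule found 150 of the 6370 genes with a symbol, each with 1 feature on the array. Of these, 145 had values on all 6 arrays and were tested, and Adcy7, Pde6b, Ptpn14, Prkg1 and Ptpro had none. A few symbols match by spelling only. Prkcsh encodes a subunit of glucosidase II, and Ptprcap, Pik3ap1, Mapkbp1 and the Mapk8ip genes encode adaptors or scaffolds.

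The cells were muscle satellite cells, the resident stem cells of skeletal muscle, grown from pooled hind limb muscles of 3 adult male Swiss Webster mice. The differentiated cultures had spent 72 hours without bFGF in medium with 10% horse serum and insulin, labelled as 1 mM. The proliferating cultures were myoblasts kept in growth medium with bFGF at 6.6 ng/ml. Each mouse gave 1 culture of each kind, so there were 3 arrays per group, and both groups shared the preplating on plastic that removes fibroblasts.

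As background, a kinase adds a phosphate to a protein and a phosphatase takes it off, so the balance of both sets the activity of a pathway. In myoblasts, growth factor signalling through ERK favours division, while p38 MAPK, Akt and calcineurin are known to act in differentiation and fusion. Cyclic AMP, made by adenylate cyclases and broken down by phosphodiesterases, activates protein kinase A, and Rgs proteins shorten signalling by G proteins. Many of these proteins are also regulated by phosphorylation and location, which an RNA measurement does not see.

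Among the members, Prkcq rose and Ptprn fell in differentiated cells, and these were the 2 that passed limma's test over all features. The test was repeated with mouse as a paired term (the fixed-mouse fit) and with the correlation between cultures of a mouse estimated (the random-mouse fit). Rgs4 passed as lower in both of these, and Dusp8 was just over the threshold in the test without mouse. The start regions of these 4 genes, from 250 bases before to 50 after the annotated start, are shown because the measured differences of the 4 genes are the 4 farthest from 0 among the members. Sequences are from RefSeq on GRCm38.p6, written 5′ to 3′ on the gene's strand. Capitals mark E-boxes, the CANNTG motif that myogenic factors of the MyoD family can bind, and the cAMP response element TGACGTCA.
Prkcq (chr2:11172132-11172431, plus strand): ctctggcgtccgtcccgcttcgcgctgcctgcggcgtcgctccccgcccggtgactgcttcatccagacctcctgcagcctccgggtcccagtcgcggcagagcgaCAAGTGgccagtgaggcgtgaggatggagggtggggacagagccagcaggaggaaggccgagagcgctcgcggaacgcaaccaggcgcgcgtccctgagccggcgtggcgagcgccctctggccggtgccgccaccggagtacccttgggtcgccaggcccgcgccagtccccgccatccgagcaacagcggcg
Dusp8 (chr7:142095235-142095534, minus strand): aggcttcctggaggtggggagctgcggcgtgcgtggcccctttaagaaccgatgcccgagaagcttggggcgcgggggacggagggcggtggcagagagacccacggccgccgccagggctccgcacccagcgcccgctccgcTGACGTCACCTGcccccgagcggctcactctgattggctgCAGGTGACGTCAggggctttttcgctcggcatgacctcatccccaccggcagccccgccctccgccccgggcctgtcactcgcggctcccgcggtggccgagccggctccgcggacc
Ptprn (chr1:75264159-75264458, minus strand): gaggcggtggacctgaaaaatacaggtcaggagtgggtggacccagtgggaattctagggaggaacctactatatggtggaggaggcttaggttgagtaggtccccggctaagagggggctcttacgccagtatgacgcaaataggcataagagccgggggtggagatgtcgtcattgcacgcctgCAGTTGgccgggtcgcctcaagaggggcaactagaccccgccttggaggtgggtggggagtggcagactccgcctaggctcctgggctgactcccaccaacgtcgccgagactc
Rgs4 (chr1:169747593-169747892, minus strand): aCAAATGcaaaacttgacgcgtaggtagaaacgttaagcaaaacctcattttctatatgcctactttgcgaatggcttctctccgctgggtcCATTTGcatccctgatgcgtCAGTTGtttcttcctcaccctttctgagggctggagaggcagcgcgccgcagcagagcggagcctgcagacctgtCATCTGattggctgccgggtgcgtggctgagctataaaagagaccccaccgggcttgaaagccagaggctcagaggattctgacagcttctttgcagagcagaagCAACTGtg

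The Prkcq window held 1 E-box, 144 bases before the start, and the window of Ptprn shown, that of the upstream of its 2 starts, also held 1. Rgs4 held 5. The Dusp8 window held 2 cAMP response elements, beginning 107 and 63 bases before the start, and each overlapped 1 of its 2 E-boxes. An E-box was present on either strand in 72.3% of all 32851 promoter windows and in 69.6% of the 184 windows of members, 122 of which genes had a window in the table. TGACGTCA was present in 1.79% of all windows and in 8 of the 184, or 4.35%. CAGCTG, an E-box form that is counted among the E-boxes too, was in 16.3% of all and 20.1% of the members' windows. The AP-1 motif TGANTCA was in 7.81% and 4.35%, the MEF2 site in 3.19% and 0.543%, and the CArG box in 1.63% and 1.09%. These matches describe letters only.

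Prkcq encodes protein kinase C theta, a calcium-independent isoform known from T cells and abundant in skeletal muscle. Its intensity was 1.39, 0.598 and 0.912 in differentiated cultures of mice 1, 2 and 3, against 0.104, 0.076 and 0.111 in proliferating cultures. The lowest differentiated array lay well above the highest proliferating one. The log2 difference was 3.25 ± 0.47 (SE, n = 3 per group), or 9.55-fold higher in differentiated cells (limma adjusted p = 0.0297). The proliferating mean of 0.0969 lay below 0.179, the 25th percentile of all positive intensities, and such dim values leave the fold uncertain. Adding 0.179 to every value before log2 gave a difference of 2.00 (limma adjusted p = 0.0184). The call held in the fixed-mouse fit (limma adjusted p = 0.0495). That was the smallest adjusted p of any feature in that fit, so every call in it lay just under the threshold.

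Ptprn encodes IA-2, a receptor-type member of the tyrosine phosphatase family that sits in secretory vesicles and lacks phosphatase activity. Differentiated cultures of mice 1, 2 and 3 had intensities of 0.643, 0.57 and 1.02, against 6.49, 5.91 and 3.78 in proliferating cultures. The 2 groups were far apart, and the fall was present in all 3 mice. The log2 difference was -2.87 ± 0.45 (SE, n = 3 per group), or 7.29-fold lower (limma adjusted p = 0.0325). The fixed-mouse fit did not call it (limma adjusted p = 0.0554) and the random-mouse fit called it (0.00468).

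Both calls depended on single arrays, as the calls over all features did. Without differentiated replicate 2 or 3, or proliferating replicate 2 or 3, 0 of all features were called in either direction. Without differentiated replicate 1 there were 8 higher and 51 lower, and without proliferating replicate 1 there were 91 and 88. Without differentiated replicate 1, 2 or 3 the limma adjusted p was 0.0616, 0.0566 and 0.067 for Prkcq and 0.0825, 0.0936 and 0.0594 for Ptprn. Without proliferating replicate 1, 2 or 3 it was 0.0382, 0.132 and 0.129 for Prkcq and 0.0533, 0.16 and 0.129 for Ptprn. The differences themselves moved little, from 2.95 to 3.56 for Prkcq and from -3.12 to -2.70 for Ptprn.

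As a set, the members were distributed much as the whole array was. In the fit without mouse, 1 of 145 members was called higher, against 0.285% of 10186 features, and 1 lower, against 1.01%. At an unadjusted p under 0.05, 13 members were higher and 11 lower, which is 8.97% and 7.59%, beside 7.82% and 7.09% of all features in limma. The groups did not overlap for 16 members that were higher and 13 that were lower in differentiated cells. These are 11% and 8.97% of the members, beside 10.9% and 9.8% of all 10128 features with 6 values. In the fixed-mouse fit, limma called Prkcq higher (background 0.56%) and Rgs4 lower (0.874%). In the random-mouse fit it called 8 members higher and 8 lower, 5.52% each, beside 5.07% and 5.28% of all features. Shares this near the background do not set the members apart from other genes.

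The median log2 difference was 0.20 over the members and 0.20 over all features tested. The quartiles of the members were -0.33 and 0.79, and their extremes were -2.97 and 3.25. Positive differences were found for 62.1% of members and 61.4% of all features. Quantile normalization moved the median of all features to 0.036 and that of the members to 0.028. In mouse 1, 71% of the members were higher in the differentiated culture, beside 66.5% of all features. In mouse 2 these shares were 51.7% and 53.3%, and in mouse 3 they were 55.2% and 53.9%.

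**Figure D1:**
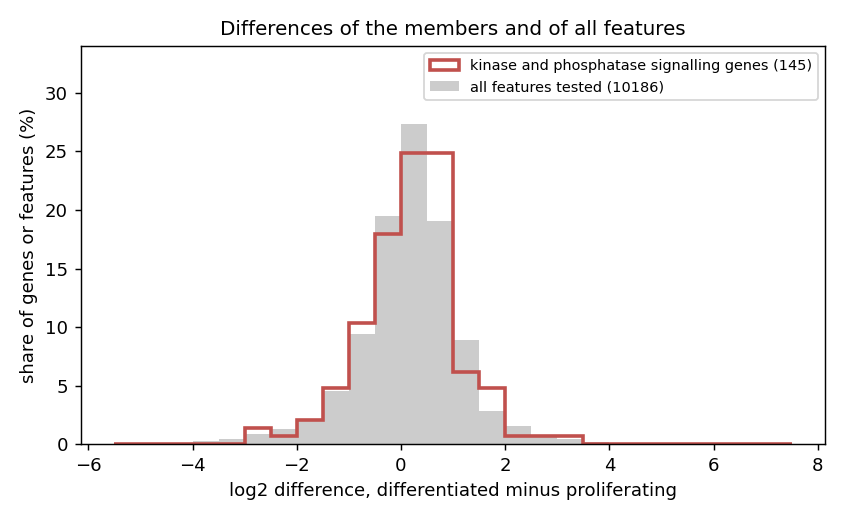
Share of genes or features (%) by log2 difference, differentiated minus proliferating, for the 145 measured members (red outline) and all 10186 features tested (grey bars). Both distributions have a median of 0.20, and the outline follows the bars over most of the range.

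Other measured genes show what state the cultures were in. Of 14 muscle contractile genes 11 were higher without overlap and 1 passed, Tmod4, and their summed intensity was 1738 to 2396 in differentiated and 140 to 992 in proliferating cultures. Proliferating replicate 1 had the 992. Of 16 cell cycle kinases and phosphatases 12 were lower without overlap and 3 fell, Nek2, Cdk1 and Ttk (limma adjusted p = 0.0201, 0.0297 and 0.0308). The fixed-mouse fit kept Nek2 and lost Cdk1 and Ttk, each by a narrow margin (limma adjusted p = 0.0495, 0.0516 and 0.0516). It also called Bub1b lower, with a difference of -2.92 (limma adjusted p = 0.0495, against 0.056 without a block). The random-mouse fit called 12 of the 16 lower. The summed intensities of these 16 were 18.3 to 21.3 in differentiated and 70.7 to 101 in proliferating cultures. Sums of 8 muscle markers, Myod1 and Myog among them, were 428 to 892 in differentiated and 240 to 584 in proliferating cultures. Of these 8, 2 were higher and 1 lower without overlap. The 2 higher were Myf6 and Tnnt3, with differences of 2.74 and 2.29 (limma adjusted p = 0.0978 and 0.198). Both passed in the random-mouse fit (limma adjusted p = 0.00838 and 0.0325), and Myf6 also in the fixed-mouse fit (0.0495). The 1 lower was Myod1, with a difference of -0.74, while Myog had one of 1.36 with overlap. Sums of 8 fibroblast markers were 1.86 to 2.6 in differentiated and 3.51 to 4.37 in proliferating cultures, with Fbln1 lower and Col1a2 higher without overlap. Fbln1 alone gave 2.19, 3.01 and 3.47 of the proliferating sums of 3.51, 4.37 and 4.03 in mice 1, 2 and 3. The median difference of the 8 was 0.46, so the markers did not fall together. Leukocyte markers (7 genes) summed to 0.74 to 1.85 in differentiated and 0.861 to 1.9 in proliferating cultures. Endothelial markers (7 genes) summed to 0.513 to 1.33 in differentiated and 0.531 to 1.07 in proliferating cultures. For smooth muscle and pericytes (6 genes) the sums were 53.4 to 162 in differentiated and 11.2 to 84.9 in proliferating cultures. Most of this was Acta2, at 49.7 to 148 in differentiated and 8.59 to 81.1 in proliferating cultures. For Schwann cells (2 genes) the sums were 7.52 to 15.2 in differentiated and 5.97 to 7.02 in proliferating cultures. Most of this was Pmp22, at 7.31 to 15.1 and 5.94 to 6.92. For adipocytes (3 genes) the sums were 1.75 to 2.82 in differentiated and 0.764 to 4.31 in proliferating cultures. Of the markers of other cell types, 0 passed in limma without a block, while Fbln1, a fibroblast marker with a difference of -3.20, and Rgs5, a pericyte marker, were called lower in the random-mouse fit (limma adjusted p = 0.0114 and 0.0412). The part of cell makeup in the results below was not tested, and fewer cells of a type and less RNA per cell cannot be told apart.

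**Figure D2:**
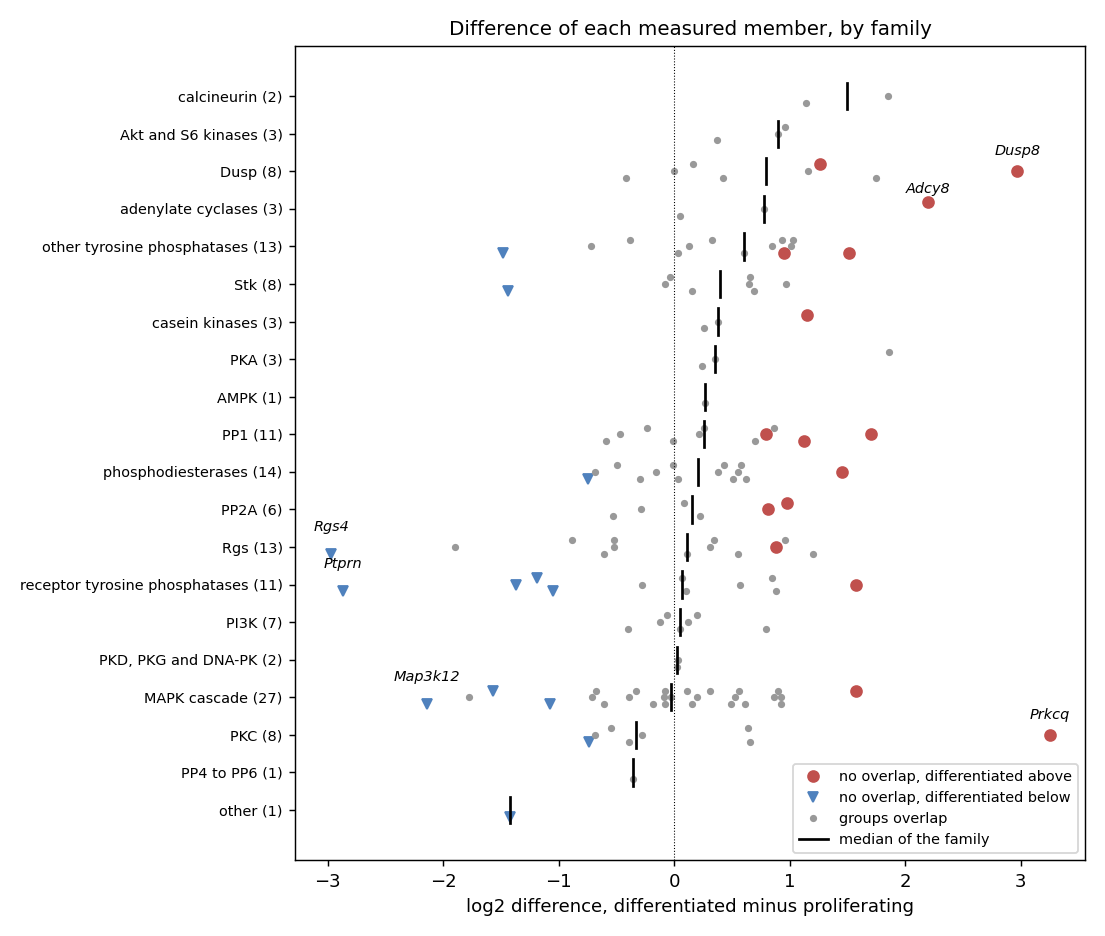
Log2 difference, differentiated minus proliferating, of each of the 145 measured members, 1 row per family with its number of measured genes in brackets. Red circles are members whose differentiated arrays all lie above the proliferating ones, blue triangles those that all lie below, grey dots those that overlap, and black bars family medians. Prkcq at 3.25 and Rgs4 at -2.97 are the extremes.

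The MAPK cascade relays signals from receptors through 3 tiers of kinases. In this family 27 genes were measured, with Mapkbp1 and the Mapk8ip scaffolds among them. None passed in limma without a block, where 0 were called in either direction, 13 had positive and 14 negative differences, and the median was -0.03. Members without overlap were few: 3 of 9 MAP3K genes were lower, and 1 of 4 p38 genes was higher. Over all features, 10.9% were higher and 9.8% lower without overlap. Counts per family or list, here and below, are small and were not tested against such shares. The kinases Map2k1 and Map2k2, the middle tier that feeds ERK, had differences of 0.15 ± 0.46 and 0.31 ± 0.42, neither past the threshold. Their intensities lay between 16.4 and 25.4 in differentiated and between 11.5 and 27 in proliferating cultures.

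Map3k12, the dual leucine zipper kinase upstream of JNK, had intensities of 0.963, 0.342 and 0.372 in differentiated cultures of mice 1, 2 and 3, against 1.59, 2.05 and 3.2 in proliferating cultures. Every differentiated array was below every proliferating one, and mouse 1 showed the smallest gap. The difference was -2.14 ± 0.55 (limma adjusted p = 0.111), and it passed in the random-mouse fit (0.0261). Map3k20, the stress-activated kinase also called ZAK, had 0.277, 0.189 and 0.2 in differentiated and 0.825, 0.787 and 0.426 in proliferating cultures. Its difference of -1.57 likewise passed in the random-mouse fit (limma adjusted p = 0.0216) and not without a block (0.148). Map3k11, another JNK pathway kinase, was also lower without overlap at -1.08, but the difference was -0.31 without differentiated replicate 2 (limma adjusted p = 0.508 with all arrays).

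None of the 4 p38 genes passed in any of the 3 fits. Mapk12 encodes p38 gamma, the form known to be rich in skeletal muscle, and had 12.1, 3.81 and 4.63 in differentiated against 2.88, 2.6 and 1.09 in proliferating cultures. Its groups did not overlap, and the difference was 1.57 ± 0.61 (limma adjusted p = 0.28). It stayed over the threshold in the random-mouse fit (0.0567). Mapk13, or p38 delta, had 0.194, 0.254 and 0.0548 against 0.154, 0.925 and 0.765, which overlap, and a difference of -1.78. Mapk14, or p38 alpha, had a difference of 0.61 with overlap, and Mapk11 was dim in both groups. The 3 JNK genes lay between -0.71 and 0.11.

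Dusp genes encode dual-specificity phosphatases, many of which switch MAP kinases off. Of 8 measured, 6 had positive differences, 2 were higher without overlap, 0 lower, and the median was 0.79. Over all features, 61.4% of differences were positive, 10.9% were higher without overlap, and the median was 0.20. Dusp8, which acts on JNK and p38, had 1.59, 3.85 and 2.17 in differentiated and 0.575, 0.22 and 0.22 in proliferating cultures. All 3 differentiated arrays were well above. The difference of 2.97 ± 0.56, or 7.82-fold, just missed the threshold (limma adjusted p = 0.0523, and 0.0799 in the fixed-mouse fit). It passed in the random-mouse fit (0.0111), with a pseudocount (0.021) and without proliferating replicate 1.

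Dusp1, an early-response phosphatase of p38 and JNK, had 8.55, 6.6 and 5.87 in differentiated against 5.63, 2.27 and 1.88 in proliferating cultures. The lowest differentiated array was just above the highest proliferating one, and the difference was 1.26 ± 0.52 (limma adjusted p = 0.309). Dusp13, known from muscle and testis, had 26.6, 9.49 and 7.42 against 11.1, 1.68 and 2.62, with a difference of 1.75 and overlap through proliferating replicate 1. Dusp6, the cytoplasmic ERK phosphatase, had a difference of -0.42 and its groups overlapped.

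**Figure D3:**
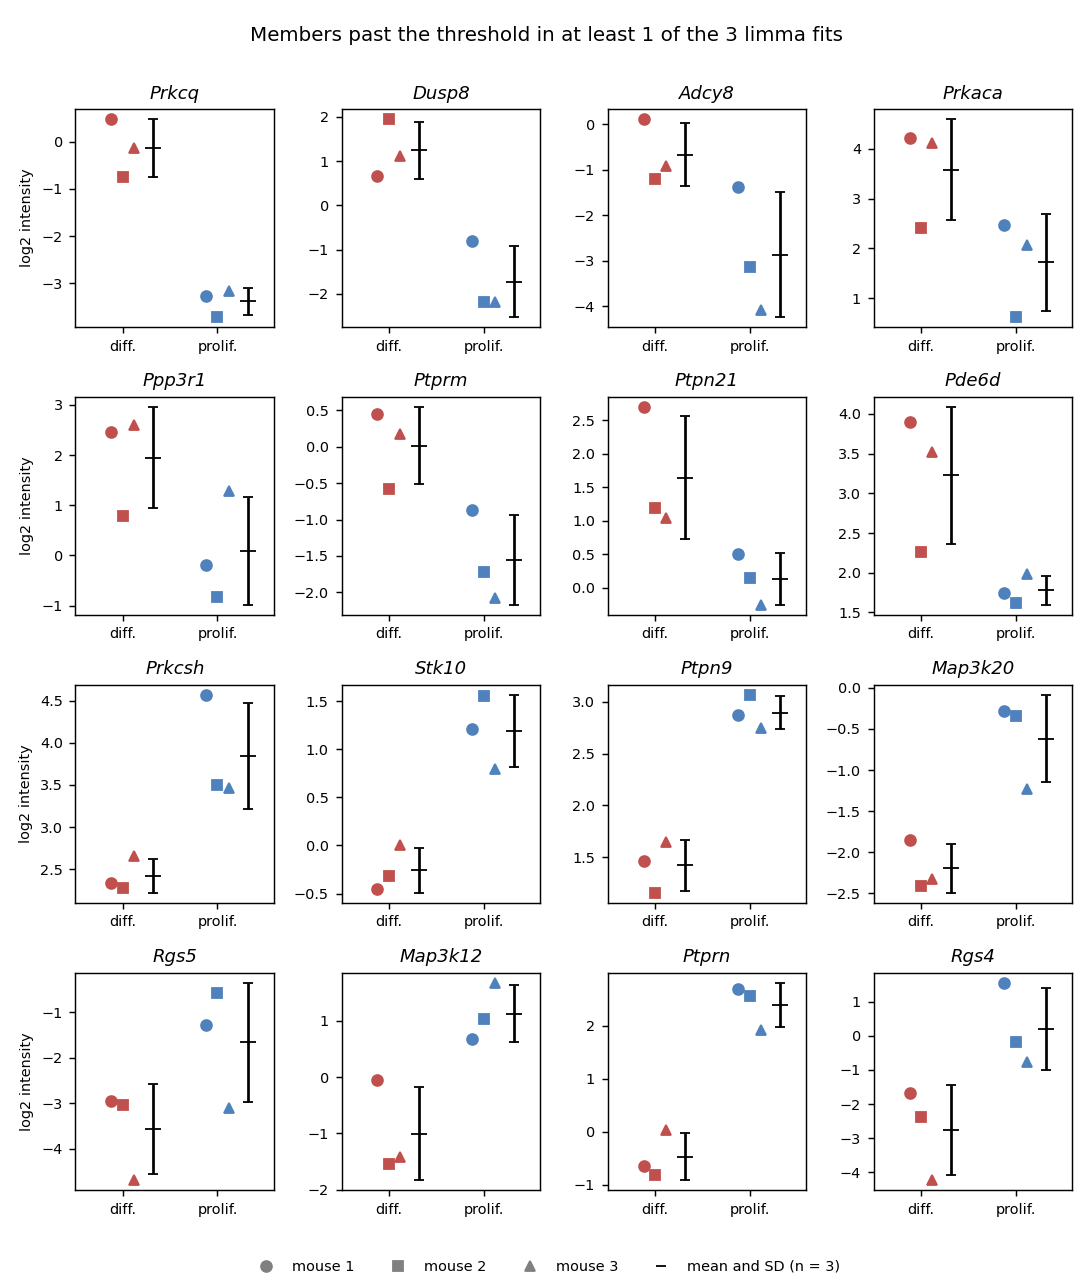
Log2 intensity by array for the 16 members past the threshold in at least 1 of the 3 limma fits (without mouse, fixed-mouse, random-mouse), differentiated left of proliferating. Symbols mark the mouse, and black bars the mean and SD of 3 arrays. Scales differ between panels; Prkcq and Ptprn show the clearest separation, while Prkaca, Ppp3r1 and Rgs5 overlap between groups.

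Receptor tyrosine phosphatases span the membrane and several of them bind to their like on a neighbouring cell. Of 11 measured genes with a Ptpr symbol, the adaptor gene Ptprcap among them, 4 were lower and 1 higher without overlap. The shares over all features were 9.8% and 10.9%. Ptprn was the 1 that passed in limma without a block. Ptprk, an adhesion-type receptor, had 2.17, 2.22 and 2.36 in differentiated and 5.64, 6.83 and 3.54 in proliferating cultures. Its differentiated values were tightly grouped and all lower, with a difference of -1.19 ± 0.43 (limma adjusted p = 0.247). Ptpra, which activates Src family kinases, had 3.03, 4.12 and 2.58 against 5.88, 7.7 and 6.29. This was a difference of -1.05 ± 0.41 (limma adjusted p = 0.286). Ptprg had a difference of -1.37 (limma adjusted p = 0.28).

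Ptprm, an adhesion receptor of the same type as Ptprk, went the other way. It had 1.36, 0.671 and 1.13 in differentiated against 0.549, 0.304 and 0.238 in proliferating cultures, with no overlap. The difference was 1.57 ± 0.50 (limma adjusted p = 0.193, or 0.0311 in the random-mouse fit). Ptprc, the leukocyte antigen CD45, lay between 0.0246 and 0.27 on all 6 arrays. In the random-mouse fit, limma called 1 receptor gene higher, Ptprm, and 1 lower, Ptprn.

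**Figure D4:**
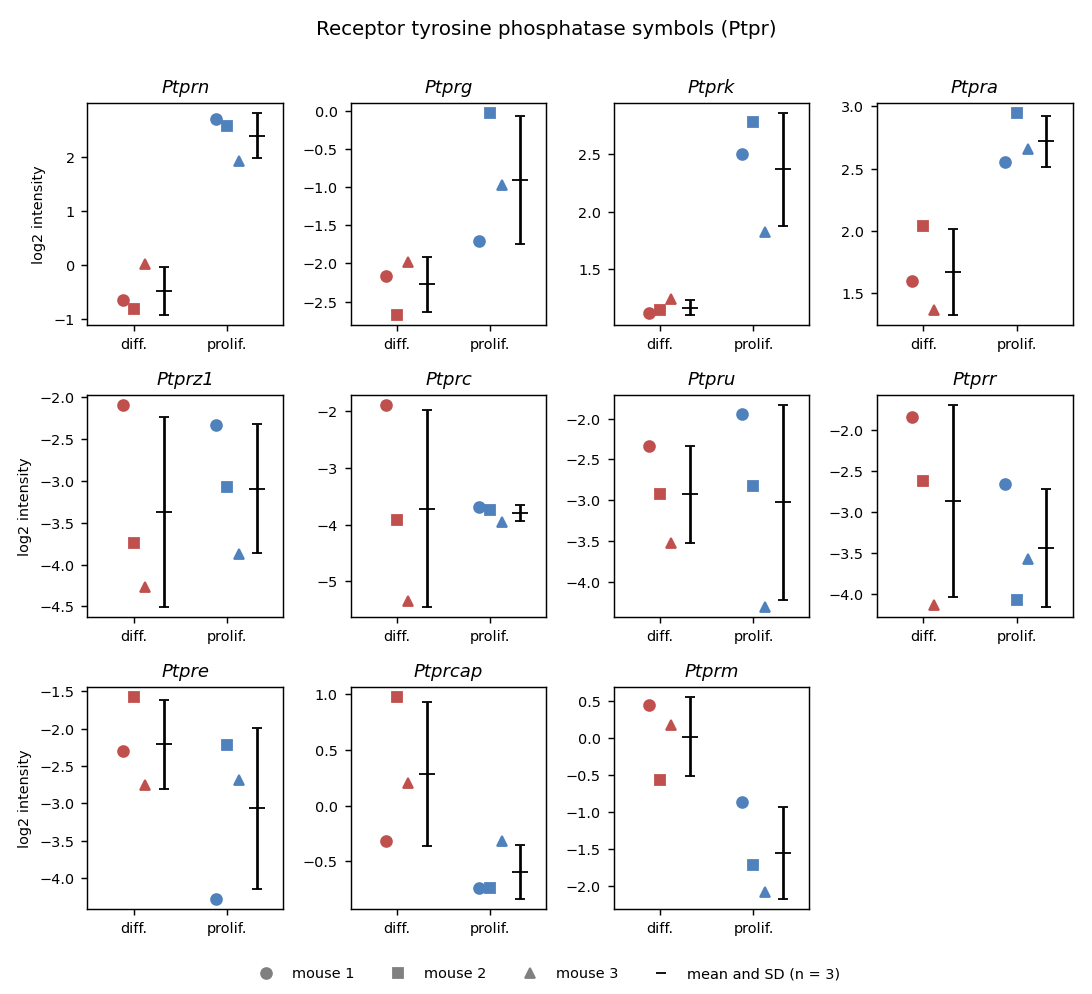
Log2 intensity by array for the 11 measured Ptpr symbols, differentiated left of proliferating, ordered by difference from Ptprn at -2.87 to Ptprm at 1.57. Symbols mark the mouse, and black bars the mean and SD of 3 arrays; the first 4 genes are lower and Ptprm higher without overlap, and the other 6 overlap.

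Among 13 non-receptor tyrosine phosphatases, 10 had positive differences (median 0.60) and 0 passed in limma without a block. Of all features, 61.4% had positive differences. Ptpn9, a phosphatase of secretory vesicles, had 2.75, 2.23 and 3.13 in differentiated against 7.33, 8.38 and 6.71 in proliferating cultures. Both groups were tight, and the difference was -1.48 ± 0.40 (limma adjusted p = 0.126). It passed in the random-mouse fit (0.0192) and with a pseudocount (0.037). Ptpn21, a phosphatase with a FERM domain, had 6.47, 2.27 and 2.05 in differentiated against 1.42, 1.1 and 0.837 in proliferating cultures. Its difference was 1.51 ± 0.55, and it passed in the random-mouse fit only (limma adjusted p = 0.0426, against 0.256 without a block and 0.0957 with a fixed one). Ptpn1, which acts on the insulin receptor, was higher without overlap at 0.95 (limma adjusted p = 0.349). Ptpn11, the phosphatase SHP2 that carries growth factor signals, had 0.378, 1.94 and 0.2 against 0.232, 0.978 and 0.0797, so that mouse 2 was high in both groups and the groups overlapped.

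The array also held other protein kinase C isoforms. The other 7 had differences from -0.74 to 0.66. Prkcd, the delta isoform, had 4.14, 4.56 and 4.11 in differentiated against 9.07, 8.42 and 4.78 in proliferating cultures. It was lower without overlap, with a narrow gap in mouse 3, and a difference of -0.74 ± 0.43 (limma adjusted p = 0.484). Prkca, the classical alpha isoform, had a difference of 0.66 ± 0.45 with overlap. The difference between Prkcq and these isoforms was not tested.

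Adcy8, a calcium-stimulated adenylate cyclase, had 1.08, 0.433 and 0.531 in differentiated against 0.386, 0.113 and 0.0592 in proliferating cultures. The gap between the groups was small, since proliferating replicate 1 came close, and the difference was 2.20 ± 0.73 (limma adjusted p = 0.211, or 0.0291 in the random-mouse fit). Prkaca, the alpha catalytic subunit of protein kinase A, had 18.5, 5.31 and 17.3 against 5.54, 1.54 and 4.18. The groups overlapped by 1 array, but in each of the 3 mice the differentiated culture was higher, by 1.74, 1.79 and 2.05 on the log2 scale. The difference of 1.86 ± 0.68 missed the threshold without a block and with a fixed one (limma adjusted p = 0.257 and 0.0556), and passed in the random-mouse fit (0.0301). The other 2 subunits measured, Prkacb and Prkar1b, had differences of 0.35 and 0.24, and Prkar1b was at -0.16 under quantile normalization.

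Calcineurin is the calcium-activated phosphatase whose targets include the NFAT factors. Its regulatory subunit Ppp3r1 had 5.52, 1.72 and 6.04 in differentiated against 0.882, 0.566 and 2.43 in proliferating cultures. Proliferating replicate 3 was above differentiated replicate 2, yet within each mouse the differentiated culture was higher. The difference was 1.85 ± 0.71 (limma adjusted p = 0.273, or 0.0417 in the random-mouse fit). Ppp3cc, a catalytic subunit, had a difference of 1.14 with overlap. Of 9 other genes of calcium, calmodulin and NFAT, 2 were higher without overlap, Pvalb and Rcan1 (limma adjusted p = 0.0741 and 0.384). Pvalb, a calcium buffer of fast muscle fibres, passed in the random-mouse fit (limma adjusted p = 0.00817).

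Of 14 phosphodiesterase genes, 0 passed in limma without a block, 5 were dim in both groups and the median was 0.20. Pde6d, which carries prenylated proteins between membranes, had 14.9, 4.78 and 11.5 in differentiated against 3.34, 3.07 and 3.94 in proliferating cultures. The proliferating arrays were close together and all lower, and the difference of 1.45 ± 0.52 passed in the random-mouse fit (limma adjusted p = 0.0492, against 0.248 without a block). Pde6g, a subunit of the photoreceptor enzyme, had 52.1, 32.5 and 23.8 against 29.1, 32 and 17.7, with a difference of 0.43 and overlap. Pde10a was lower without overlap at -0.75, with a gap between groups of 0.03 on the log2 scale.

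Rgs proteins speed up the shutting off of G proteins. Of 13 measured, Rgs4 was lower and Rgs2 higher without overlap. Rgs4, which acts on Gi and Gq, had 0.311, 0.193 and 0.0528 in differentiated cultures of mice 1, 2 and 3, against 2.95, 0.89 and 0.583 in proliferating cultures. The order of the mice was the same in both groups, and the difference of -2.97 ± 0.82 was 7.85-fold lower. Without a block it did not pass (limma adjusted p = 0.132), while it passed in the fixed- and random-mouse fits (0.0495 and 0.0127). Adding 0.179 to every value before log2 gave -1.97. Rgs5, known as a pericyte marker, is the neighbouring protein-coding gene of Rgs4 in the GRCm38.p6 annotation. It had 0.13, 0.122 and 0.0387 against 0.414, 0.666 and 0.116, with a difference of -1.90 (limma adjusted p = 0.294, or 0.0412 in the random-mouse fit). Its differentiated mean of 0.097 lay below 0.179, while its proliferating mean was 0.399. Adding 0.179 to every value before log2 gave a difference of -0.96 for Rgs5. The low value of proliferating replicate 3 made its groups overlap. The other pericyte and smooth muscle markers on the array were not lower together: Acta2, Cnn1, Tagln and Pdgfrb had positive and Myh11 a negative difference. Rgs2, which acts mainly on Gq, had a difference of 0.88 ± 0.41 (limma adjusted p = 0.372).

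Serine/threonine phosphatases work as a catalytic subunit joined to targeting subunits. Of the catalytic genes, Ppp1ca and Ppp1cc had differences of 0.26 ± 0.47 and -0.01 ± 0.44, Ppp2ca one of 0.08 ± 0.48, and Ppp4c one of -0.36, and under quantile normalization Ppp1ca and Ppp2ca were at -0.15 and -0.30. Ppp1r3a, which brings PP1 to glycogen in striated muscle, had 4.82, 1.03 and 1.57 in differentiated against 0.686, 0.69 and 0.483 in proliferating cultures. Its difference of 1.70 ± 0.61 did not pass (limma adjusted p = 0.25, or 0.0553 in the random-mouse fit), and differentiated replicate 1 was far above the others. Ppp1r15a, the stress-induced subunit GADD34, was higher without overlap at 1.12, but its 2 groups were 0.02 apart on the log2 scale. Ppp2r3c and Ppp2r3d, regulatory subunits of PP2A, were higher without overlap at 0.98 and 0.81 (limma adjusted p = 0.312 and 0.418).

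The 3 genes of Akt and the S6 kinases and the 7 of phosphoinositide 3-kinase held 0 that passed in any of the 3 limma fits and 0 without overlap. The 7 include the adaptor gene Pik3ap1. Akt1 had a difference of 0.37 ± 0.56, Akt2, the form of insulin action, 0.96 ± 0.47, and Rps6kb2 0.90 ± 0.54 (limma adjusted p = 0.837, 0.397 and 0.5). Pik3ca, a catalytic subunit, had 4.46, 2.77 and 3.98 in differentiated against 3.67, 2.73 and 3.87 in proliferating cultures, a difference of 0.12. Prkag1, the subunit of AMP-activated kinase measured here, had one of 0.27 ± 0.65. Of 13 other genes of the mTOR and FoxO arm, 0 passed in limma with or without a random block, 0 were without overlap, and the median was 0.20.

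Of 8 Stk genes, Stk10 alone was without overlap. Stk10, a kinase of lymphocytes and other cells that acts on ezrin family proteins, had 0.729, 0.804 and 1 in differentiated against 2.32, 2.93 and 1.74 in proliferating cultures. All differentiated arrays were lower, with a difference of -1.44 ± 0.42 (limma adjusted p = 0.151, or 0.0276 in the random-mouse fit). Csnk2a1, the catalytic subunit of casein kinase 2, had 10.1, 6.02 and 4.84 against 3.43, 2.67 and 2.94. Its difference was 1.15 ± 0.45 (limma adjusted p = 0.279), while the related Csnk2a2 had one of 0.38 with overlap. Prkcsh had 5.05, 4.85 and 6.28 against 23.7, 11.3 and 11, a difference of -1.42 ± 0.46 that passed in the random-mouse fit (limma adjusted p = 0.0418, against 0.203 without a block).

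**Figure D5:**
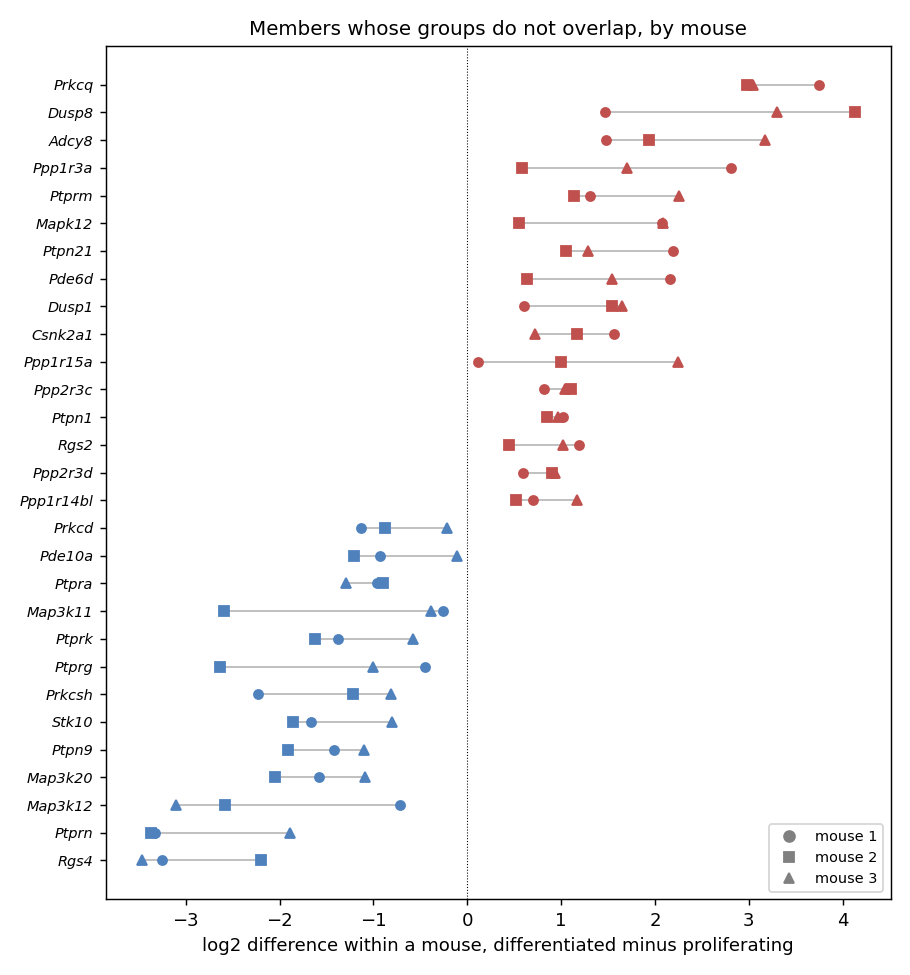
Log2 difference within each mouse, differentiated minus proliferating, for the 29 members whose groups do not overlap (red for 16 higher, blue for 13 lower). Symbols mark the mouse and grey lines the range; Prkcq is at 2.98 or more in every mouse, whereas Ppp1r15a spans 0.11 to 2.24.

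Genes on either side of these enzymes were mixed as well. Of 16 receptors and Ras to Raf genes, 0 passed in limma without a block, 4 were higher and 3 lower without overlap. Fgfr3 had a difference of 2.75 and Met one of -1.13 (limma adjusted p = 0.0995 and 0.266, or 0.0127 and 0.0449 in the random-mouse fit). Of 19 ERK feedback inhibitors and immediate early targets, Fosl1, an AP-1 subunit, fell by 3.49 (limma adjusted p = 0.0428), a call lost in the fixed-mouse fit (0.0664) and kept in the random-mouse fit (0.00752). Fos, another AP-1 subunit, went the other way, with a difference of 2.72 and overlap. It was called higher in the random-mouse fit (limma adjusted p = 0.0439), but not without a block (0.276) or with a fixed one (0.0832). Of the same 19, 3 were higher and 3 lower without overlap. Of 20 G protein and cAMP effector genes, 0 passed in limma without a block. Gng2 and Akap12, a G protein subunit and an anchor of protein kinase A, had differences of -1.49 and -1.44 and passed in the random-mouse fit (limma adjusted p = 0.0215 and 0.0258).

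Over the 145 members, arrays of the differentiated group correlated with each other at 0.914 to 0.955 and those of the proliferating group at 0.926 to 0.956. Arrays of the same mouse from different groups correlated at 0.9 to 0.928. For arrays of different mice from different groups the range was 0.864 to 0.925, which overlaps that of the same mouse. These correlations are across genes, which are not independent replicates. Of the members, 28 had mean intensities under 0.179 in both groups and 18 in 1 group, so that background limits what these can show.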

How the data were processed

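RNA from 6 cultures was measured on 1-colour CodeLink arrays, with biotin-labelled cRNA, per the labels' protocols. The authors deposited intensities on a linear scale with array medians between 0.883 and 0.939. Each array has some values of 0 or less, which shows a background subtraction. How the values were scaled is not stated in the sources used here. Bacterial control mRNAs served for intensity normalization, per the labels' protocols. No detection call was used, and the number of arrays limits the precision.

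Values under the 1st percentile of positive intensities (0.0236) were set to it, and log2 was taken with no further scaling. All 10186 features with at least 2 values per group went into 1 model of group in limma 3.58.1 under R 4.3.3 (lmFit, then eBayes). P-values were adjusted over all of them by Benjamini-Hochberg, and those under 0.05 were called. Each log2 difference subtracts the proliferating from the differentiated mean and carries the SE of the model, and n is 3 per group. "Without overlap" means that all 3 values of a group lie above those of the other.

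Both cultures came from each mouse, per the series design, and the labels number them, so replicate numbers mark pairs. Deviations from the group means correlated, between the 2 cultures of a mouse, at 0.42, 0.367 and 0.283. No analysis method is stated, so mouse entered as a fixed or a random block in alternative fits. The random-effect fit assumes 1 shared correlation, estimated as 0.535.

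All 150 members matched the GRCm38.p6 RefSeq gene table by Entrez ID, and 0 symbols differed. The members and lists were chosen with earlier results of these data known. Named were members past the threshold in the fit without a block or with a fixed one, the largest differences without overlap in each family, or its smallest p where there was none, the member of highest mean in each family, and a panel. Map3k11, Mapk11, Mapk13, Ppp3cc, Prkacb, Prkar1b and Rps6kb2 lie outside that rule and were chosen after their values were seen, as were Bub1b, Fos and the marker genes named singly. Alternatives covered the floor, a pseudocount, normalization, dim features, the variance prior, the block, the threshold, and leaving out arrays. Each gene had 1 feature, so averaging features of a gene gave nothing to compare.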

Additional observations from a re-analysis of the deposited data

How the results depend on the processing

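Testing features with a symbol alone, and quantile normalization with mouse as a random effect, were chosen after seeing the data. The counts of all features, 29 higher and 103 lower, became 65 and 178 when the floor was raised to the 10th percentile. A pseudocount gave 127 and 266, dropping the dimmest features (6789 tested) 137 and 279, and a trended, robust prior 125 and 263. They were 109 and 231 at an adjusted p under 0.1, and quantile normalization gave 162 lower. With mouse as a replicate block they were 57 and 89 in the fixed fit, 516 and 538 as a random effect, and 345 and 597 with quantile normalization added. Leaving out 1 array or both arrays of a mouse gave 0 to 91 higher and 0 to 88 lower.

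Of the members, 1 was called higher and 1 lower. With a pseudocount there were 2 and 2, with the trended prior 2 and 2, and without the dimmest features 2 and 3. The 10th percentile floor, the adjusted p under 0.1 and named features alone each gave 2 higher, Prkcq and Dusp8. The random replicate block gave 8 and 8, and 5 and 9 with quantile normalization. With 1 array or 1 mouse left out, 0 to 2 were called higher and 0 lower in limma, with 3 to 16 higher or lower at an unadjusted p under 0.05, and without proliferating replicate 1 the 2 were Prkcq and Dusp8. The members' median difference ranged from -0.04 (without differentiated replicate 1) to 0.42 (without proliferating replicate 1). The members without overlap numbered 20 to 40 higher and 13 to 29 lower on leaving out arrays, where fewer arrays make overlap less likely by construction. No named member that passed in either setting changed sign. Of 1322 comparisons of a named member with an alternative, 1267 left its side of the threshold as it was, 37 brought it past and 18 took it out. Dimness limits the members and the genes of the other lists with mean intensities under 0.179.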
